A study of Mus musculus with 9 samples.

Results

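Slow fibres of skeletal muscle build their contractile apparatus from their own forms of troponin, tropomyosin, myosin light chain and calcium-handling proteins, and 10 genes of that set are described here over 7 muscle and 2 kidney RNA sequencing libraries of mouse. The genes were chosen by symbol, and all 10 were found among the 24421 gene symbols of each table. Thin-filament members were Tnni1, Tnnc1, Tnnt1 and Tpm3, light-chain members were Myl2 and Myl3, calcium members were Atp2a2 and Casq2, and members that bind the Z-disc or the I-band and respond to load were Csrp3 and Ankrd2.

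Muscle libraries came from wild type mice given PBS (2 libraries), mice with a tumour given PBS (1), mice with a tumour given MDC (1), wild type mice given DKK1 (1), and mice labelled beta-arrestin_ko given PBS (1) or DKK1 (1). Kidney libraries came from a mouse with a tumour and a wild type mouse, both given PBS. DKK1 is a secreted inhibitor of Wnt signalling that binds the co-receptor LRP6, and the series title names cancer cachexia, a loss of muscle and fat seen in patients and animals with tumours. The labels give neither age, strain nor tumour type, name MDC only by its letters, do not say which muscle was taken, which arrestin gene was targeted or how, and do not say that the 2 wild type libraries came from separate animals. If they did not, p-values measure only the spread between these libraries, which may be technical.

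Total counts ran from 21358854 to 32607835 per muscle library and were 44421797 and 42480786 in kidney. Levels are CPM (a gene's counts scaled to library size) after TMM, a correction for composition made within each tissue, so that muscle and kidney values were scaled separately. Levels per length (RPKM, on the same scaling) are used wherever 1 gene is set against another. A letter in the table names puts wild type PBS library 1 and both tumour muscle libraries in set B and wild type PBS library 2, the DKK1 libraries and the libraries labelled knockout in set C. Neither arrestin gene fell below wild type PBS where the label says knockout: Arrb1 was at 20.5 CPM (PBS) and 28.2 CPM (DKK1) beside 17.3 and 20.3 CPM in the wild type PBS pair, with wild type DKK1 at 22.1 CPM. Arrb2 was at 9.61 CPM (PBS) and 7.98 CPM (DKK1) beside 7.59 and 7.86 CPM in that pair, with wild type DKK1 at 8.32 CPM. Gene totals do not show the loss of an exon, and these samples are called the libraries labelled knockout throughout.

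In a resting fibre, tropomyosin lies along the actin filament and covers the sites that myosin binds. Calcium released from the sarcoplasmic reticulum binds troponin C, the inhibitory hold of troponin I loosens, and troponin T passes the movement on to tropomyosin. Calcium is stored bound to calsequestrin and returned to the store by the SERCA pump. Slow fibres, which work at low force for long periods, and the heart share several of these proteins, whereas fast fibres carry the products of separate genes. Counts summed over a gene do not separate its isoforms, and Tpm3 and Atp2a2 also make non-muscle forms found in many tissues.

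On the mouse build GRCm38 (mm10), Tnni1 lies at chr1:135779434-135810989, Tnnc1 at chr14:31208312-31211729, Tnnt1 at chr7:4504570-4516382 on the minus strand and Tpm3 at chr3:90072649-90100902. Myl2 lies at chr5:122100951-122113472 and Myl3 at chr9:110741861-110769798. Atp2a2 lies at chr5:122453513-122502225 on the minus strand and Casq2 at chr3:102086415-102146514. Csrp3 lies at chr7:48830398-48848033 on the minus strand and Ankrd2 at chr19:42036000-42045110. Values are counts per gene as the authors deposited them, and the annotation used for counting, which may differ from these positions, is not given.

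The RefSeq promoter table for GRCm38.p6 held a start site for 9 of the 10 genes, all but Atp2a2. The 250 bases before the start are shown for the 3 slow troponins, whose levels kept ratios within 1.75-fold to Tnni1 in 6 of the 7 muscle libraries (not in wild type PBS library 1), and for Csrp3 and Ankrd2, which kept together but left the troponins (values below). Capitals mark 3 motifs: the E-box CANNTG, bound by MyoD-family and other factors, the MCAT element CATTCC, bound by TEAD factors, and the core promoter letters TATAAA. All were searched on both strands, where the E-box reads alike.
Tnni1, chr1:135799171-135799420, plus strand: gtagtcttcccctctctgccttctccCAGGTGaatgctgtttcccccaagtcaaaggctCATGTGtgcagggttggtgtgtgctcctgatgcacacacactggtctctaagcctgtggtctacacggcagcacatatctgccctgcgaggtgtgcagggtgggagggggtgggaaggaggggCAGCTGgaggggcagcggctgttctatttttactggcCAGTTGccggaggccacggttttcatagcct
Tnnc1, chr14:31208062-31208311, plus strand: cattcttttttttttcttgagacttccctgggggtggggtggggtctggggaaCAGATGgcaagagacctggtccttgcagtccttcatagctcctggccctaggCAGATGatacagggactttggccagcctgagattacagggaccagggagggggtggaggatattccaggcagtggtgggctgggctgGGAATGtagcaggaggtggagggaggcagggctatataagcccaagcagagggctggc
Tnnt1, chr7:4515976-4516225, minus strand: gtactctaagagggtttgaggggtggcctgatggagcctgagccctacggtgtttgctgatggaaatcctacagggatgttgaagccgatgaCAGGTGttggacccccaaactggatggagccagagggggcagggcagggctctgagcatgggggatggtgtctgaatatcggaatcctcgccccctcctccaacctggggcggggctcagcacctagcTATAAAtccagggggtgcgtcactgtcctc
Csrp3, chr7:48848052-48848301, minus strand: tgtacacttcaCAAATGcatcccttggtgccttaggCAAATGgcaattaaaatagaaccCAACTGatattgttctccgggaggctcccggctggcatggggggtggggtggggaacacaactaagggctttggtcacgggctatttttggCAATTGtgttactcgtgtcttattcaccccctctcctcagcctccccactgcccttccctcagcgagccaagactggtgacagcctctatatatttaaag
Ankrd2, chr19:42035777-42036026, plus strand: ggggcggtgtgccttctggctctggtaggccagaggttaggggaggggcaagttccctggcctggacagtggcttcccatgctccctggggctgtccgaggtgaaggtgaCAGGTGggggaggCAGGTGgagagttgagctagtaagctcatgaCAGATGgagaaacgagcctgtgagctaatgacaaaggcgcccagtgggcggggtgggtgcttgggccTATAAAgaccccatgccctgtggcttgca

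Where the table held 2 starts for a gene, the one nearest the annotated gene start was taken, which for Tnni1 lies 19987 bases inside the annotated gene. The start used for Myl2 lies 7762 bases before its annotated gene, and that of Myl3 lies 21817 bases inside its gene. An E-box stood in the window of all 9 genes with a start, 4 times in Tnni1 and in Csrp3, 3 times in Ankrd2, 2 times in Tnnc1, Myl2 and Casq2 and 1 time in Tnnt1, Myl3 and Tpm3. The same letters occurred in 66.2% of the windows of all 32851 starts in the table. MCAT stood in Tnnc1 and Myl3 (12.6% of all windows), TATAAA in Tnnt1, Myl2 and Ankrd2 (12.4%), a MEF2 motif in Casq2 (2.92%) and a CArG box, the letters bound by SRF, in Myl3 (1.47%). TATAAA began 30 bases before the start in Tnnt1, 29 in Ankrd2 and 216 in Myl2. A match is a run of letters and not a measured site, and a window without one lacks only those letters.

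All 10 genes were lowest in wild type PBS library 1 and second lowest in the library labelled knockout PBS. For 8 of the 10 the highest library was the one labelled knockout DKK1, and for Csrp3 and Ankrd2 it was wild type PBS library 2. Summed over the 10, the level was 55.4 CPM in wild type PBS library 1, 203 CPM in the library labelled knockout PBS, 295 CPM in tumour PBS, 892 CPM in wild type PBS library 2, 939 CPM in wild type DKK1, 1382 CPM in tumour MDC and, where the label is knockout DKK1, 4501 CPM. The values below follow in this order: wild type PBS libraries 1 and 2, tumour PBS, tumour MDC, wild type DKK1, then the libraries labelled knockout PBS and knockout DKK1.

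Tnni1, the inhibitory troponin I of slow fibres, was at 0.0937, 29.5, 9.32, 85.3, 28.4, 2.68 and 240 CPM. Its value in wild type PBS library 1 was 2 counts, under the 0.141 CPM that a count of 0 would allow there. Tnni1 covered the widest range of the 10, 10.51 on the log2 scale. Tnnc1, the calcium-binding troponin C of slow fibres and heart, was at 0.562, 29.1, 14.0, 126, 31.7, 2.35 and 294 CPM. Tnnt1, the slow troponin T that ties the complex to tropomyosin, was at 1.59, 46.6, 25.7, 172, 49.1, 5.78 and 493 CPM. For all 3 troponins tumour MDC was the second highest library, and wild type DKK1 and wild type PBS library 2 lay side by side in the middle of the order. Tpm3, the slow alpha-tropomyosin gene, was at 8.25, 111, 38.2, 236, 122, 33.5 and 661 CPM, in the same order of libraries as Tnnc1 and Tnnt1 but over a smaller range of 6.31.

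Myl2, the regulatory light chain of slow and ventricular myosin, was at 1.08, 49.2, 33.7, 173, 59.9, 7.67 and 487 CPM. Its order of libraries was that of Tnnc1 and Tnnt1. Myl3, the essential light chain of the same myosins, was at 2.11, 83.4, 32.5, 165, 178, 25.1 and 830 CPM. Myl3 differed from Myl2 in wild type DKK1, which stood above tumour MDC for Myl3 and well below it for Myl2.

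Atp2a2, the SERCA2 calcium pump, was at 33.7, 214, 63.1, 218, 221, 54.8 and 1242 CPM. The library labelled knockout DKK1 stood apart, and wild type PBS library 2, tumour MDC and wild type DKK1 differed by little. Casq2, the calsequestrin of slow fibres and heart, was at 6.37, 54.3, 21.7, 29.98, 77.7, 19.8 and 81.8 CPM. It had the smallest range of the 10, 3.67 on the log2 scale, and its level in wild type DKK1 was close to its highest.

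Csrp3, the muscle LIM protein of the Z-disc, was at 0.234, 105, 17.8, 69.3, 57.6, 14.5 and 50.4 CPM. Ankrd2, an ankyrin repeat protein that binds titin in the I-band and is induced by stretch, was at 1.41, 169, 39.1, 106, 114, 37.0 and 122 CPM. Both genes were highest in wild type PBS library 2, and neither stood out in the library labelled knockout DKK1.

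**Figure D1:**
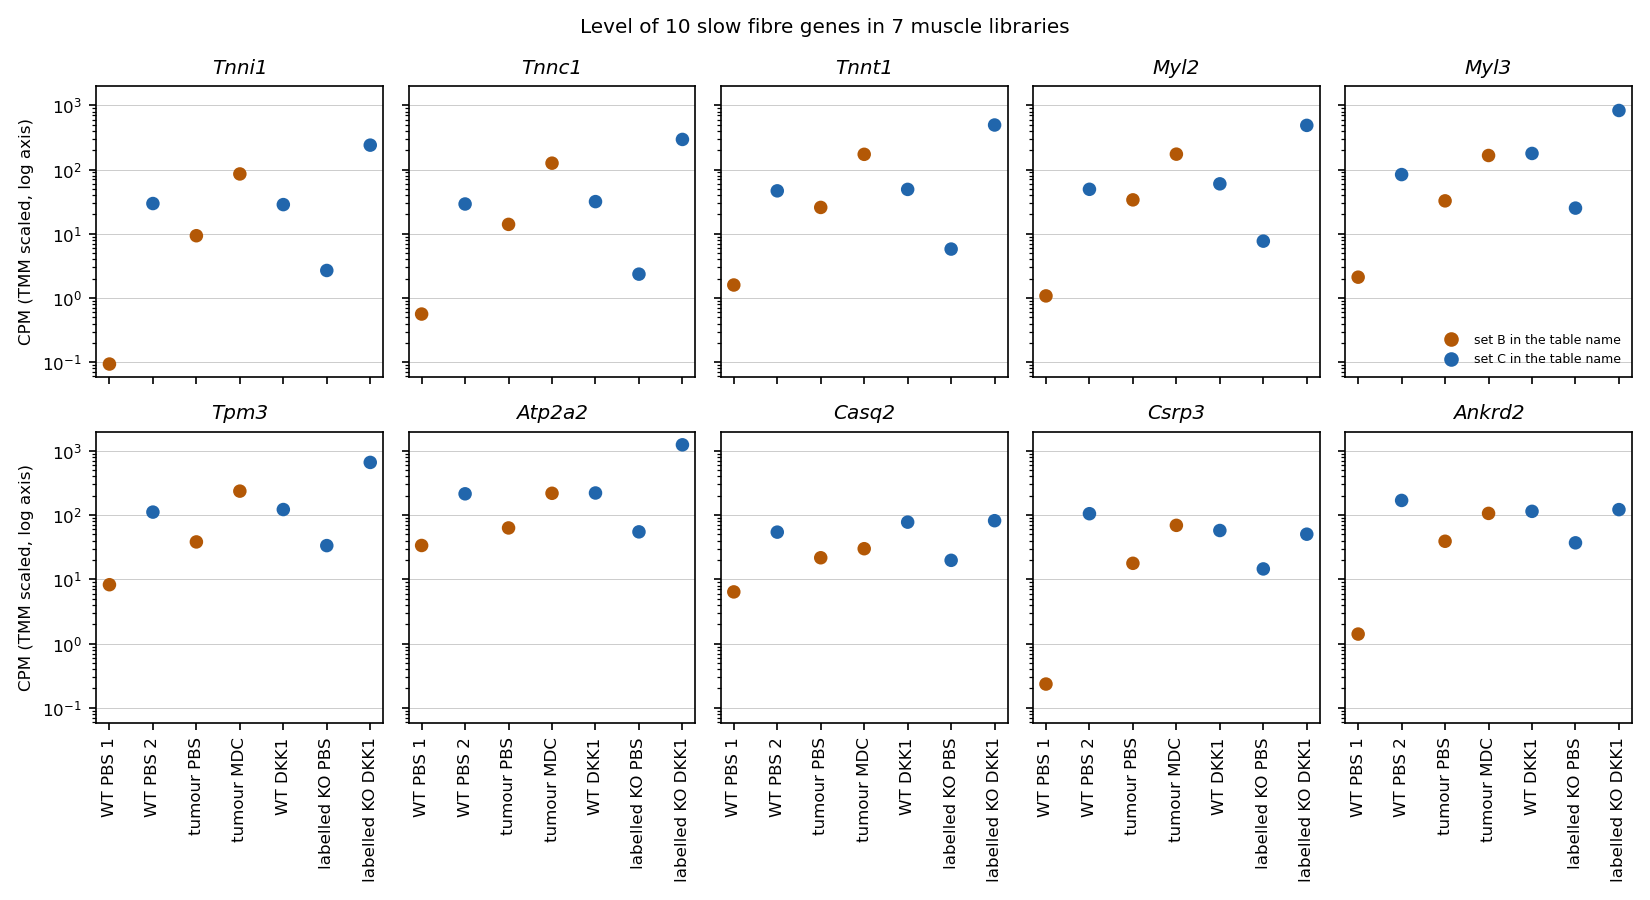
Level of each gene in each muscle library as CPM on a log axis, 1 point per library, coloured by the set letter in the table names. Wild type PBS library 1 is lowest in all 10 panels, and the library labelled knockout DKK1 is highest in 8, with Tnni1 from 0.0937 to 240 CPM.

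The wild type PBS pair is the only repeated group, and its spread bounds each statement that follows. Tnni1 averaged 14.8 ± 20.8 CPM (SD, n = 2), Myl3 42.8 ± 57.5 CPM, Atp2a2 124 ± 128 CPM and Csrp3 52.7 ± 74.2 CPM, so the SD was larger than the mean for these 4. All 10 genes were 2-fold or more higher in library 2, with 100 or more counts there, where 14.3% of 10720 genes with such counts were. The log2 differences ran from 2.67 (Atp2a2) to 8.43 (Csrp3), with a median of 5.34 against -0.05 over all genes tested. Tnni1 was 315-fold higher (95% counting interval 86.9 to 2608) and Csrp3, with 5 counts in library 1, 449-fold higher (192 to 1383). With scaling by total counts alone, 2639 genes were higher and 550 lower in place of 1531 and 1301, and all 10 members still passed.

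Other genes of slow fibres went the same way between these libraries. From a list of 11, 10 were 2-fold or more higher in library 2 and 0 lower by as much, with slow myosin Myh7 at 2.30 and 135 CPM in libraries 1 and 2, Myoz2, a Z-disc protein of slow fibres, at 32 counts and 70.3 CPM, Myom3, an M-band protein, at 32 counts and 54.3 CPM, and Sln, a SERCA inhibitor, at 0 counts and 4.41 CPM. Of the 8 fast counterparts 6 were 2-fold or more lower in library 2 and 0 higher, and Tnni2, the fast troponin I, was at 16810 and 4052 CPM. The log2 differences were -2.05 for Tnni2, -1.90 for Tnnc2, -1.19 for Tnnt3, -2.16 for Mylpf, -2.14 for Myl1, -1.74 for Tpm1, -0.59 for Atp2a1 and -0.73 for Casq1. Set letter, animal and any difference in the muscle sampled cannot be told apart in this pair. The ribosomal RNA gene Rn45s took 1.96% of counts in library 1 and 8.29% in library 2. It took 0.545% in tumour PBS and 2.51% in tumour MDC, 0.622% in wild type DKK1, and 0.359% and 1.05% in the libraries labelled knockout PBS and DKK1. It was thus higher in library 2 than in library 1, in tumour MDC than in tumour PBS and in knockout DKK1 than in knockout PBS as labelled, as most or all members were. Other libraries went the other way. Library 1, lowest for all 10 members, had more Rn45s than tumour PBS, wild type DKK1 and both libraries labelled knockout. The part of Rn45s in the differences of the members was not tested. In a bulk sample, fewer slow fibres and less slow RNA per fibre cannot be told apart either.

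The tumour comparison asks what a tumour changes in muscle, and for these genes the answer depended on the wild type library. Against library 1, which shares set B with it, the tumour PBS library was higher for all 10, from a log2 difference of 0.91 (Atp2a2) to 5.87 (Csrp3), median 4.21. Against library 2 it was lower for all 10, from -0.55 (Myl2) to -2.56 (Csrp3), median -1.45. Each tumour PBS value thus lay inside the wild type pair: 0 members were 2-fold higher and 0 lower against each library, where 1.35% and 0.419% of 10981 genes were. Without library 1 the count was 8 lower, and without library 2 it was 9 higher. Scaling by total counts alone gave 187 higher and 27 lower genes in place of 148 and 46.

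edgeR's quasi-likelihood test, fitted to the 7 libraries together, called 0% of 15482 genes at an adjusted p under 0.05 in each of the 8 muscle contrasts, the members included, all with an adjusted p of 1. For tumour PBS against wild type PBS, 165 genes and 0 members had an unadjusted p under 0.05, and the fitted sign was lower for 8 of the 10, whereas the mean of the 2 log2 differences was positive for 9.  DESeq2 called 12 genes in this contrast, and 0 members in any of the 8 contrasts.

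In animals with a tumour, MDC was set against PBS, both libraries in set B. Of the 10 members 9 were 2-fold or more higher in the MDC library, where 1.17% of 11005 genes were, and the median log2 difference was 2.35 against 0.02 over all genes tested. Tnni1 was at 85.3 against 9.32 CPM, a log2 difference of 3.19, and Tnnc1 at 126 against 14.0 CPM, a difference of 3.16. Tnnt1, Tpm3, Myl2 and Myl3 differed by 2.74, 2.62, 2.36 and 2.34, and Csrp3, Atp2a2 and Ankrd2 by 1.96, 1.79 and 1.44. Casq2 was the exception at 29.98 against 21.7 CPM, a difference of 0.47. All of these lie within the differences of the wild type pair, which for each gene were larger.

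Beside them, 6 of the 11 genes on the other slow fibre list were 2-fold or more higher in the MDC library and 0 lower by as much. Myh7 at 332 against 34.1 CPM and Sln at 33.5 against 9.59 CPM were among the 6, whereas Myh2, Tpm2, Mb and Fhl1 were not. Of the 8 fast counterparts 0 passed in either direction, with a median difference of 0.51. Tnnc1 (edgeR log2 change 3.16 ± 1.44 SE) and Tpm3 (2.63 ± 1.22 SE) were the 2 members among 38 genes with an unadjusted p under 0.05, and both had an adjusted p of 1. Each edgeR SE here and below was worked back from the test statistic. DESeq2 called 0 genes here. With scaling by total counts alone 61 genes were higher and 748 lower in place of 129 and 354, and the 9 members still passed.

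Set against wild type PBS, the MDC library was 2-fold or more above each wild type library for Tnni1, Tnnc1, Tnnt1, Myl2 and Tpm3, 5 of 10, where 0.776% of 10048 genes were. Against library 2 these 5 differed by log2 values of 1.53, 2.11, 1.89, 1.82 and 1.08. Myl3 missed the limit at 0.99, Atp2a2 was at 0.03, and Casq2, Csrp3 and Ankrd2 were lower than in library 2, at -0.86, -0.60 and -0.67. Without library 2 all 10 passed. An unadjusted p under 0.05 in edgeR's quasi-likelihood test went to 231 genes, 3 members among them: Tnnc1 (log2 change 3.08 ± 1.12 SE), Tnnt1 (2.84 ± 1.06 SE) and Myl2 (2.79 ± 1.12 SE), each with an adjusted p of 1.

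The DKK1 comparison in wild type mice asks what the Wnt inhibitor changes in muscle. Against library 2, which shares set C with it, the DKK1 library differed little for most members: Tnni1, Tnnc1, Tnnt1, Tpm3 and Atp2a2 lay between -0.06 and 0.13 on the log2 scale, Myl2 at 0.28 and Casq2 at 0.52. Myl3 was higher by 1.09, with a ratio of 2.13 (95% counting interval 2.03 to 2.24), and was the 1 member past 2-fold against each library, where 2.34% of 11443 genes were. Csrp3 and Ankrd2 were lower by this measure, at -0.87 and -0.56. Against library 1 all 10 were higher, from 2.71 to 7.56, and without library 2 all 10 passed. edgeR gave 206 genes and 0 members an unadjusted p under 0.05, and the fitted change of Myl3 was 2.06 ± 1.12 SE with an adjusted p of 1. DESeq2 called 4 genes.

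**Figure D2:**
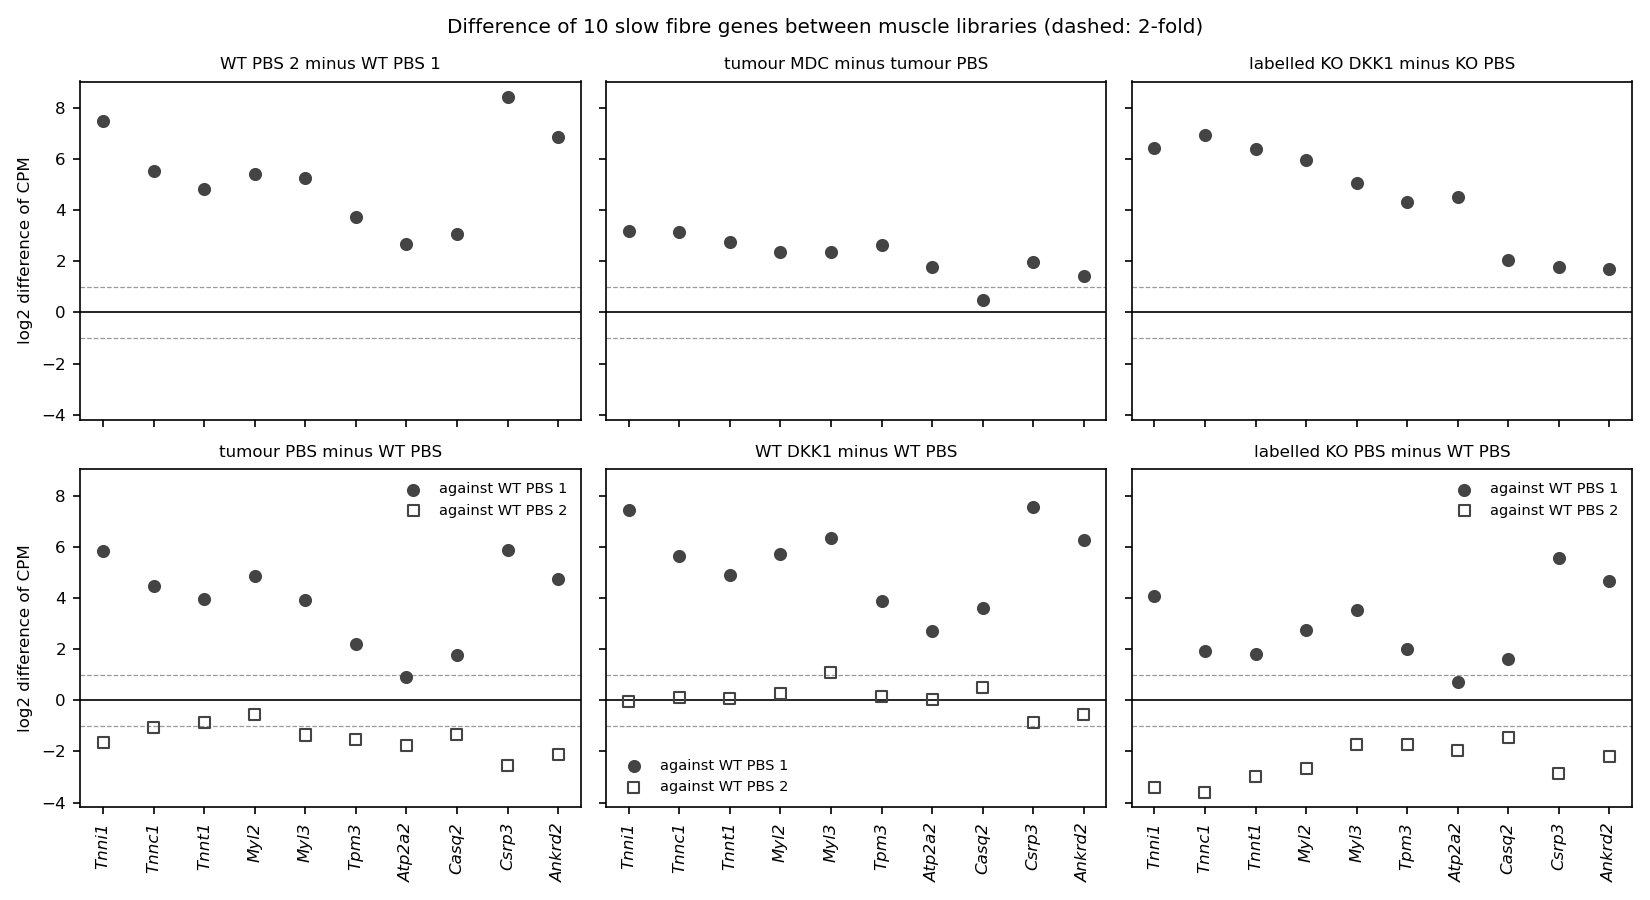
Log2 difference of CPM for each gene in 6 comparisons of muscle libraries, with circles for a single reference or wild type PBS library 1 and squares for wild type PBS library 2, and dashed lines at 2-fold. Tumour PBS and the library labelled knockout PBS lie above 0 against library 1 and below 0 against library 2 for all 10 genes.

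The library labelled knockout PBS lay between the 2 wild type PBS libraries for all 10 genes. Against library 2, of the same set, the differences ran from -1.46 (Casq2) to -3.59 (Tnnc1), with a median of -2.43. Against library 1 they ran from 0.70 (Atp2a2) to 5.58 (Csrp3). Of the 8 members with enough counts for the size rule, 0 passed the size rule in either direction, where 0.795% of 10190 genes were higher and 0.658% lower. Without library 1 all 10 were lower by 2-fold or more, and without library 2 there were 7 higher. edgeR gave 182 genes and 0 members an unadjusted p under 0.05, and the fitted sign was lower for all 10, with Tnnc1 at -2.65 ± 1.34 SE (adjusted p = 1). DESeq2 called 19 genes.

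Between the 2 libraries labelled knockout, both in set C, the DKK1 library was higher for all 10 members by 2-fold or more, where 2.18% of 10838 genes were. Tnnc1, at 294 against 2.35 CPM, differed by 6.92 on the log2 scale, Tnni1, at 240 against 2.68 CPM, by 6.44, Tnnt1 by 6.40 and Myl2 by 5.97. Myl3 differed by 5.04, Atp2a2, at 1242 against 54.8 CPM, by 4.5 and Tpm3 by 4.30. Casq2, Csrp3 and Ankrd2 differed by 2.05, 1.79 and 1.72. The median over the 10 was 4.77 against -0.02 over all genes tested. Since neither arrestin gene fell below wild type PBS in them, this difference is one between the libraries so labelled.

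In this contrast edgeR's test gave 48 genes an unadjusted p under 0.05, and 7 members were among them: Tnnc1 (log2 change 6.96 ± 1.73 SE), Tnni1 (6.48 ± 1.94 SE), Tnnt1 (6.41 ± 1.60 SE), Myl2 (5.99 ± 1.67 SE), Myl3 (5.05 ± 1.60 SE), Atp2a2 and Tpm3 (4.30 ± 1.32 SE). Adjusted over 15482 genes each was at 1, and DESeq2 called 0 genes, with 0.138 as the smallest adjusted p of a member. On the other slow fibre list 8 of 11 genes were 2-fold or more higher and 0 lower by as much, the fast myosin Myh2 among the 8. Myh7 was at 2055 against 8.38 CPM, Myoz2 at 162 against 24.1 CPM and Sln at 19.1 against 2.39 CPM. Of the 8 fast counterparts 0 passed, with a median of -0.40.

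Wild type PBS library 2 differed from library 1 by more than this for Tnni1, Myl3, Csrp3, Casq2 and Ankrd2, and by less for Tnnc1, Tnnt1, Myl2, Tpm3 and Atp2a2. The library labelled knockout DKK1 was also 2-fold or more above wild type DKK1 for 7 members, where 2.65% of 11601 genes were: Tnnt1 (3.33), Tnnc1 (3.21), Tnni1 (3.07), Myl2 (3.02), Atp2a2 (2.49), Tpm3 (2.44) and Myl3 (2.22). Casq2, Ankrd2 and Csrp3 differed by 0.08, 0.09 and -0.19, and with scaling by total counts alone Casq2 and Ankrd2 turned negative, at -0.20 and -0.18. That scaling gave 157 higher and 1757 lower genes in place of 308 and 1155. In edgeR's test 218 genes, with Tnnt1 (3.33 ± 1.38 SE), Tnnc1 (3.22 ± 1.44 SE) and Atp2a2 (2.49 ± 1.10 SE) among them, had an unadjusted p under 0.05, each of the 3 with an adjusted p of 1.

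Whether DKK1 differed in effect between the libraries labelled knockout and wild type was tested as an interaction in the same edgeR fit. It was positive for all 10 members and called none, with an adjusted p of 1 for each. Unadjusted p-values under 0.05 in edgeR's test went to 44 genes and 5 members, Tnnc1 (5.87 ± 1.97 SE), Tnni1 (5.54 ± 2.24 SE), Tnnt1 (5.39 ± 1.85 SE), Myl2 (4.74 ± 1.93 SE) and Atp2a2 (3.67 ± 1.45 SE). The contrasts against wild type PBS share its 2 libraries, and both contrasts of knockout DKK1 share that library, so they are not separate evidence.

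Set against their fast counterparts, the slow forms were a small share of the pair in each muscle library. The share is the slow RPKM over slow plus fast RPKM, with intervals that cover counting error only. Tnni1 made up 0.000334% of Tnni1 plus Tnni2 in wild type PBS library 1 (95% counting interval 4.04e-05% to 0.00121%), 0.435% in library 2, 0.0627% in tumour PBS, 0.296% in tumour MDC, 0.497% in wild type DKK1, 0.0222% in the library labelled knockout PBS and 3.14% in that labelled knockout DKK1. Tnnc1, paired with Tnnc2, ran from 0.00190% to 2.65%, and Tnnt1, paired with Tnnt3, from 0.00542% to 3.17%. The order of libraries for Tnnc1 and Tnnt1 shares put tumour MDC second, as did their levels, whereas for Tnni1 wild type DKK1 and wild type PBS library 2 stood above tumour MDC, in which Tnni2 was at 17201 CPM.

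Light chains reached higher shares than troponins. Myl3, paired with Myl1, was at 0.0113%, 1.94%, 0.714%, 2.53%, 4.43%, 0.255% and 10.7% in the order above, and Myl2, paired with Mylpf, ran from 0.00593% to 6.95%. Tpm3 of Tpm3 plus Tpm1 ran from 0.0229% to 3.96%, and Atp2a2 of Atp2a2 plus Atp2a1, the fast SERCA1 pump, from 0.0714% to 2.89%. Casq2 of Casq2 plus Casq1 was at 0.114%, 1.58%, 0.705%, 1.09%, 2.60%, 0.386% and 1.71%, and was thus the 1 pair whose highest share was in wild type DKK1. Every slow form had its lowest share in wild type PBS library 1 and its second lowest in the library labelled knockout PBS.

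**Figure D3:**
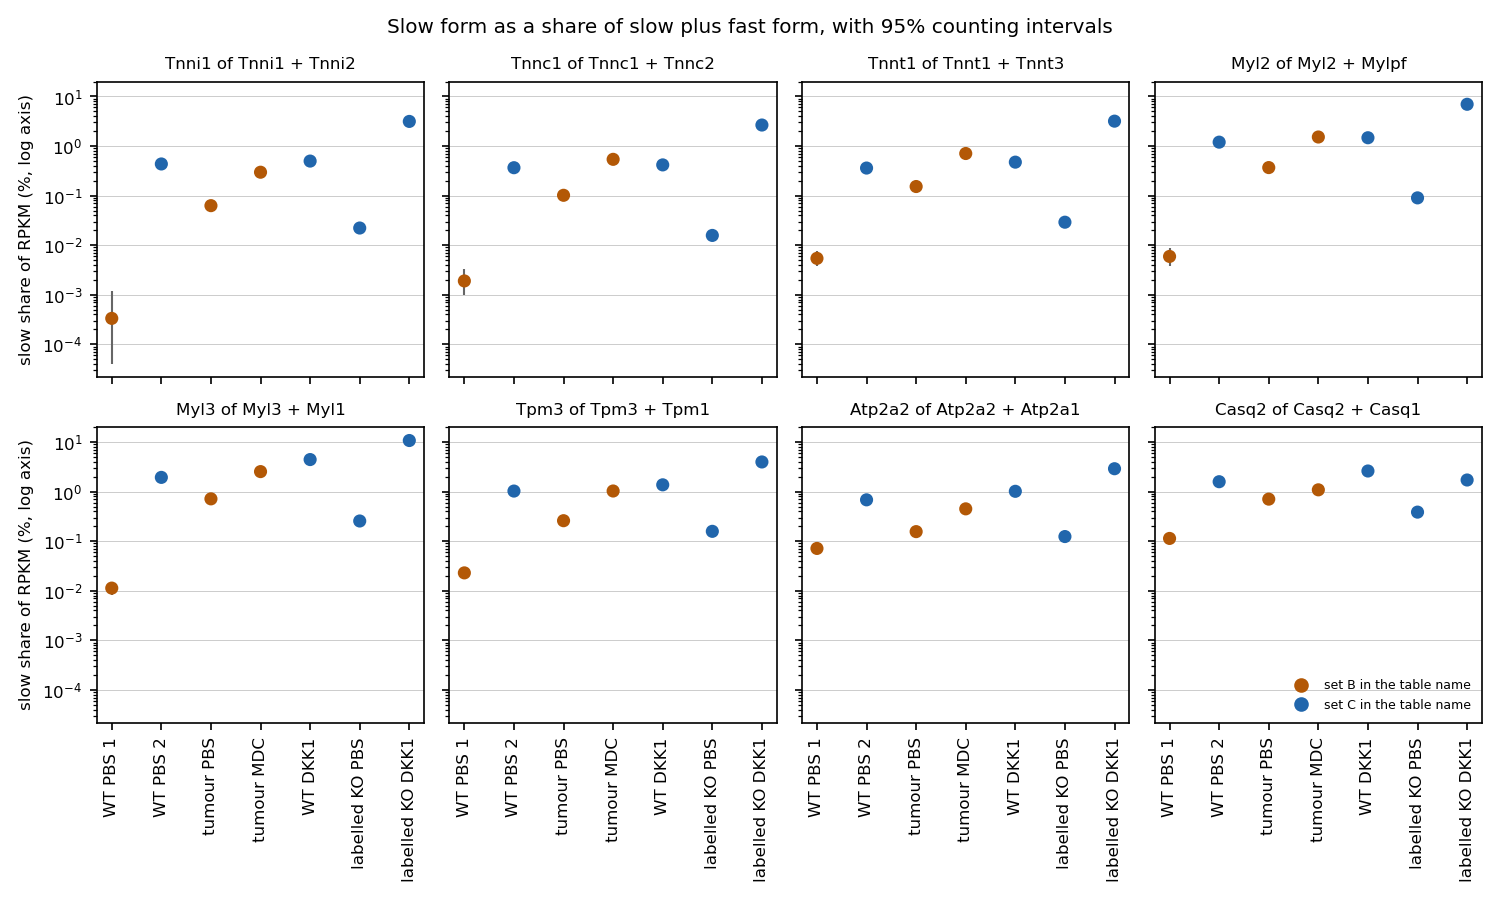
Slow form as a percent of slow plus fast RPKM on a log axis for 8 gene pairs in 7 muscle libraries, with 95% counting intervals and colours by set letter. Shares are lowest in wild type PBS library 1 and reach 10.7% for Myl3 in the library labelled knockout DKK1.

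Per length, the members did not stand in fixed proportions. Myl2 led in tumour PBS (53.2 RPKM) and tumour MDC (274 RPKM), Myl3 in wild type DKK1 (198 RPKM) and in the library labelled knockout DKK1 (924 RPKM), and Ankrd2 in wild type PBS library 2 (154 RPKM) and the library labelled knockout PBS (33.6 RPKM). In wild type PBS library 1 Atp2a2 led with 5.88 RPKM. Ratios to Tnni1 are given over the other 6 muscle libraries, since that library held 2 counts of Tnni1.

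Over those 6, Tnnc1 stayed at 1.39 to 2.38 times and Tnnt1 at 1.70 to 2.98 times the RPKM of Tnni1, spans of 1.71-fold and 1.75-fold, while Tnni1 itself went from 2.41 to 215 RPKM. With wild type PBS library 1 the spans were 6.84-fold and 10.8-fold: there Tnnc1 was at 9.51 times (95% counting interval 2.12 to 87.5) and Tnnt1 at 18.4 times Tnni1 (4.71 to 158), the latter beyond counting error from the other 6. Myl2 was at 2.93 to 6.36 times, and Myl3 at 2.40 to 11.6 times. Tpm3 ran from 0.920 to 4.17 and Atp2a2 from 0.498 to 3.98, both highest in the library labelled knockout PBS. The other 3 genes had wide spans: 0.151 to 3.27 for Casq2 (21.6-fold), 0.241 to 6.20 for Csrp3 (25.7-fold) and 0.514 to 14.0 for Ankrd2 (27.2-fold). In each of these 3 the lowest ratio was in the library labelled knockout DKK1, followed by tumour MDC, and the highest in that labelled knockout PBS. Ankrd2 to Csrp3, by contrast, was at 1.36 to 2.25, a span of 1.66-fold. With wild type PBS library 1 it reached 5.31 (95% counting interval 2.04 to 17.5).

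**Figure D4:**
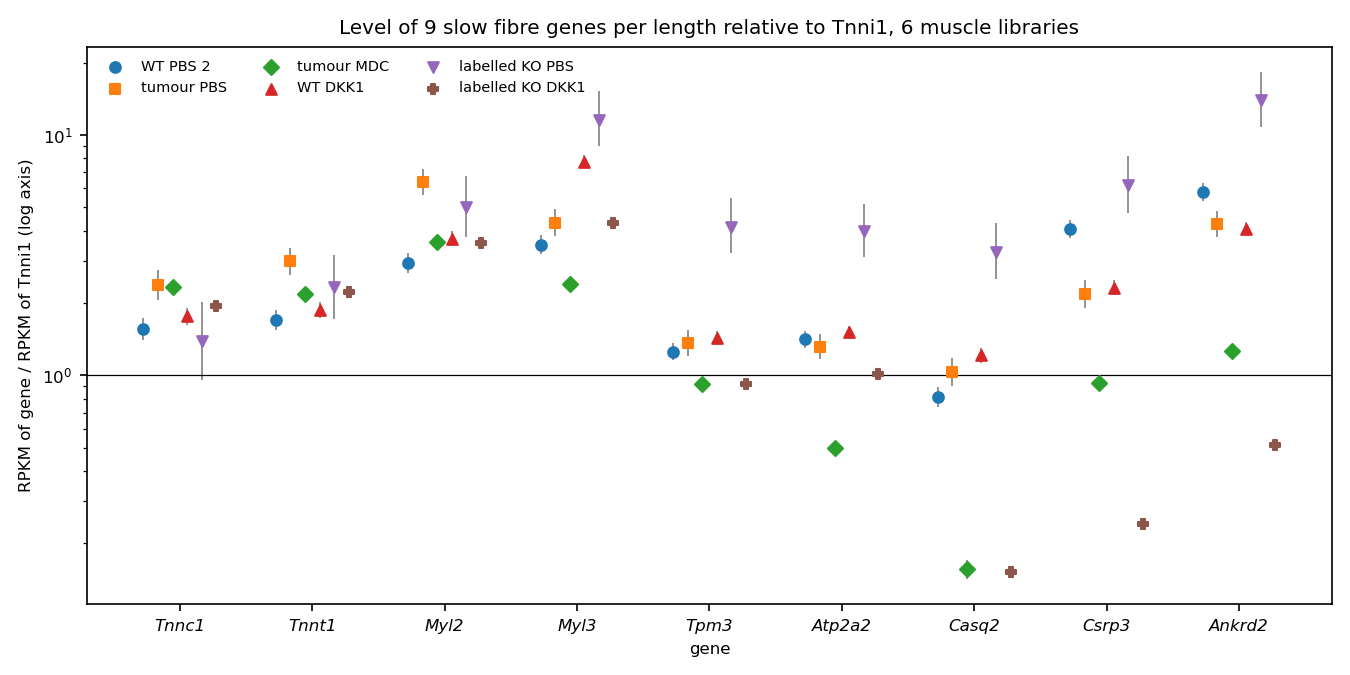
RPKM of 9 genes divided by that of Tnni1 on a log axis, 1 symbol per muscle library without wild type PBS library 1, with 95% counting intervals. Tnnc1 and Tnnt1 stay within 1.75-fold, whereas Casq2, Csrp3 and Ankrd2 spread over 21.6-fold to 27.2-fold.

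Across the 7 muscle libraries the log2 CPM of each member rose with that of Tnni1 (9 relations, two-sided exact permutation tests, Benjamini-Hochberg adjusted over the 9). Pearson's r was 0.899 to 0.993 for Tnnc1, Tnnt1, Myl2, Myl3, Tpm3 and Atp2a2 (exact adjusted p 0.00179 to 0.00238), with Spearman's rho of 0.893 to 0.964 (exact adjusted p 0.00625 to 0.0185). Without the 2 libraries farthest from the median of Tnni1, wild type PBS 1 and that labelled knockout PBS, r was 0.932 to 0.995 for these 6. The libraries differ in treatment and set, and the relation takes in those differences. Sets B and C, with 3 and 4 libraries, were too small for a value within each.

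For the other 3 the relation was weaker without the 2 lowest libraries. Casq2 had r = 0.889 (exact permutation p = 0.0190, adjusted p = 0.0190) and rho = 0.857 (p = 0.0238, adjusted p = 0.0306), and r = 0.540 without the 2 farthest libraries. Csrp3 had r = 0.901 (exact permutation p = 0.0171, adjusted p = 0.0190) and rho = 0.750 (p = 0.0663, adjusted p = 0.0663), and r = 0.454 without them. Ankrd2 had r = 0.912 (exact permutation p = 0.0115, adjusted p = 0.0148) and rho = 0.821 (p = 0.0341, adjusted p = 0.0384), and r = 0.574 without them. Leaving out wild type PBS library 1 alone gave 0.712, 0.711 and 0.764 (exact adjusted p = 0.133, 0.133 and 0.104). Without wild type PBS library 2 alone r was 0.8918, 0.9192 and 0.9275, so the values depend on which library is left out. Over all 45 pairs of members r ran from 0.694 (Atp2a2 with Csrp3) to 0.998 (Tnnc1 with Tnnt1), with a median of 0.907, and was 0.997 for Csrp3 with Ankrd2.

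**Figure D5:**
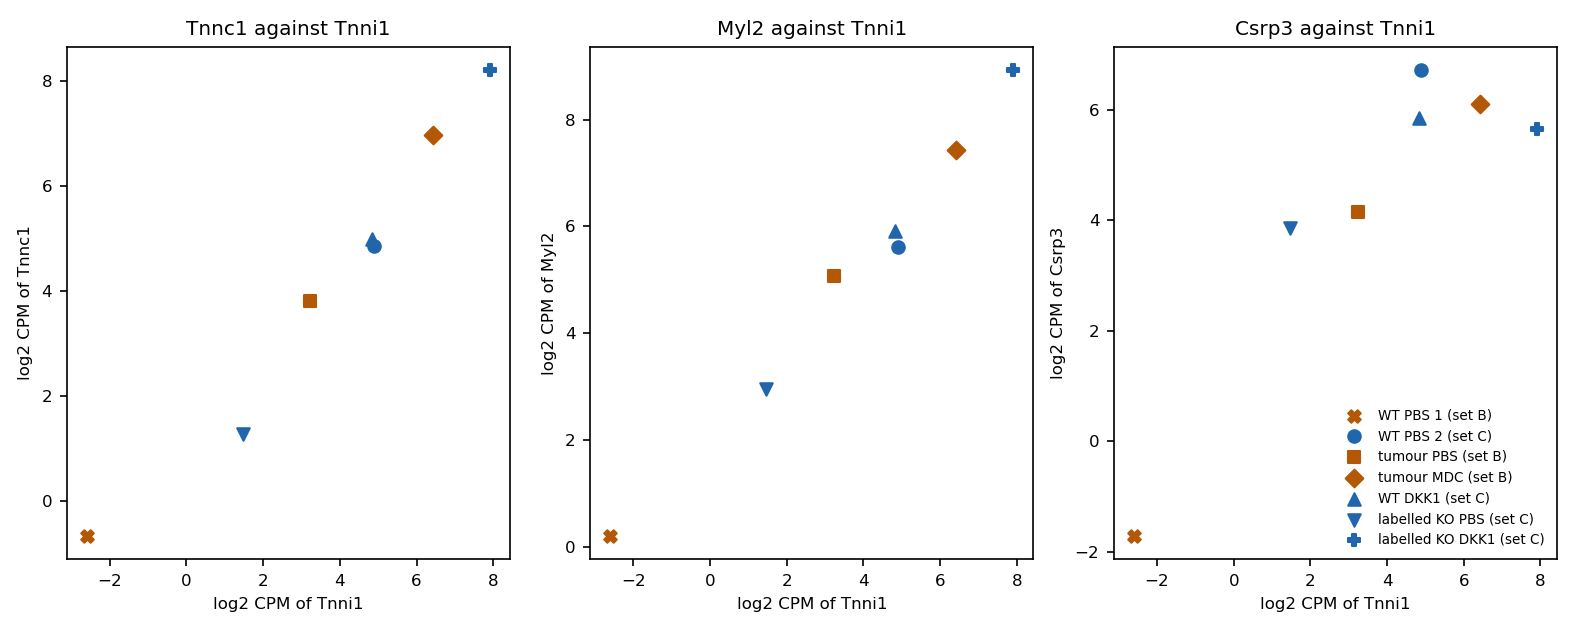
Log2 CPM of Tnnc1, Myl2 and Csrp3 against that of Tnni1, 1 symbol per muscle library, coloured by set letter. Tnnc1 and Myl2 climb with Tnni1 except between wild type DKK1 and wild type PBS library 2, which nearly coincide in Tnni1 (28.4 and 29.5 CPM), while Csrp3 lies between 50.4 and 105 CPM in the 4 libraries with most Tnni1 and is highest in wild type PBS library 2.

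Among 11258 muscle genes, those whose log2 CPM over the 7 libraries was most like the mean of the 10 members were Mhrt (r = 0.977), Lgi1 (0.972), Pqlc1 (0.970), Lrrc52 (0.960), Myl10 (0.955), Plekhf2, Sv2b, Sbk3, Dgcr8 and Bcl9 (0.945). These values rank genes and carry no test. Mhrt, at 0.375 to 388 CPM, is transcribed from the Myh7 locus on the opposite strand, and without a stated strand setting its reads and those of Myh7 cannot be told apart. Dgcr8 and Plekhf2 covered only 0.28 and 0.53 on the log2 scale. Lgi1, Lrrc52, Myl10, Sv2b and Sbk3 were at 0 CPM in wild type PBS library 1. Their highest levels, in the library labelled knockout DKK1, ran from 3.22 CPM (Lrrc52) to 10.9 CPM (Lgi1), so their r leans on values near the floor.

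Of the 12 regulators of fibre type on the list, the 4 with the widest range are given. Prox1, a homeobox factor of the slow programme, had 0 counts in wild type PBS library 1, 0.0894 to 0.537 CPM in 5 libraries and 2.97 CPM in that labelled knockout DKK1. Tumour MDC was the lowest of these 5, under the 0.134 CPM that a count of 0 would allow there, whereas it was second highest for Tnni1. Esrrg, a nuclear receptor of oxidative fibres, was at 3.23, 22.0, 6.68, 6.17, 27.1, 16.1 and 24.8 CPM and did not follow Tnni1 in tumour MDC. Ppp3ca, the catalytic subunit of calcineurin, was at 478, 155, 379, 544, 147, 322 and 217 CPM, higher in the 3 libraries of set B than in the 4 of set C. Rcan1, a calcineurin inhibitor and target, was at 54.7, 147, 52.4, 41.7, 171, 92.0 and 159 CPM, and its 3 libraries of set B were all below the 4 of set C. Of the 11 regulators with enough counts, 0 passed 2-fold in either direction for MDC against PBS or between the libraries labelled knockout. Over all genes, 129 of 11005 were higher and 354 lower for MDC. Between the libraries labelled knockout, 236 of 10838 genes were higher and 74 lower. Mef2c, a transcription factor of muscle genes, was 2-fold or more higher in the library labelled knockout DKK1 than in wild type DKK1, at 753 against 358 CPM. It was the 1 regulator of 11 to pass there, where 2.65% of 11601 genes were higher. In the wild type PBS pair Esrrg, Rcan1 and Vgll2, a TEAD cofactor, were that much higher in library 2 and Ppp3ca that much lower. These were 3 of 11 higher and 1 of 11 lower, where 1531 of 10720 genes were higher and 1301 lower.

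The 4 partners of Csrp3 and Ankrd2 with the widest range were Ankrd1, Actn2, Xirp1 and Flnc. Ankrd1, a stretch-induced relative of Ankrd2, was at 6.28, 82.8, 14.0, 5.85, 27.5, 15.3 and 8.65 CPM, highest in wild type PBS library 2 as Csrp3 and Ankrd2 were, but lower in tumour MDC than in tumour PBS. Actn2, the alpha-actinin of Z-discs, was at 136, 911, 328, 388, 703, 388 and 641 CPM, Xirp1 at 79.3, 425, 142, 102, 178, 96.0 and 161 CPM and the filamin Flnc at 321, 1264, 366, 414, 547, 448 and 565 CPM. All 4 were highest in wild type PBS library 2, as were Nrap and Cryab of the same list. The rest of the list peaked elsewhere: Tcap in tumour MDC, Ldb3 in wild type PBS library 1, and Xirp2 and Ankrd23 in the library labelled knockout PBS. Of the 10 partners on the list, 5 were 2-fold or more higher in library 2 than in library 1 and 0 lower by as much, where 14.3% of all genes were that much higher.

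Since heart shares most of these proteins, cardiac markers were set beside them. Myl7, the atrial light chain, had 0 counts in all 7 muscle libraries, and the natriuretic peptide genes Nppa and Nppb, cardiac troponin Tnni3 and the channel Ryr2 were at 0.715 CPM or less. Tnnt2 ran from 1.22 CPM in wild type PBS library 1 to 5.89 CPM in the library labelled knockout DKK1. Myl4 ran from 1.17 CPM in wild type PBS library 1 to 4.89 CPM in wild type DKK1. The 8 cardiac markers summed to 3.66 CPM in wild type PBS library 1 up to 167 CPM in tumour MDC, of which Myh6, a myosin also made in some skeletal fibres, was 0.562 to 161 CPM. In tumour MDC and tumour PBS they summed to 167 and 22.8 CPM, and in the libraries labelled knockout DKK1 and PBS to 143 and 9.86 CPM, beside the differences of the members between those libraries. Among other markers, 6 skeletal muscle markers ranged from 43000 CPM (wild type DKK1) to 123000 CPM (wild type PBS library 1), 5 adipocyte markers from 17.6 CPM (labelled knockout DKK1) to 744 CPM (wild type PBS library 2) and 6 kidney tubule markers from 4.22 CPM (labelled knockout DKK1) to 81.0 CPM (wild type PBS library 1). Macrophage markers (51.2 to 431 CPM) and smooth muscle markers (46.5 to 359 CPM) were also lowest in wild type PBS library 1. Tendon markers ran from 19.1 to 74.0 CPM and erythroid markers from 263 to 2570 CPM, both highest in tumour MDC. The part of any of these in the levels of the members was not tested.

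In kidney, 8 of the 10 genes had fewer than 100 counts in both libraries. Atp2a2 was at 438 CPM in the tumour library and 363 CPM in the wild type library, and Tpm3 at 56.5 and 65.0 CPM, above their level in several muscle libraries on a separate scaling. The others were at 0.0473 to 1.16 CPM, with Tnni1 at 3 and 18 counts, a ratio of 0.158 (95% counting interval 0.0298 to 0.542), and Csrp3 at 6 and 2 counts, a ratio of 2.85 (0.509 to 28.8). The skeletal marker Ckm was at 27.3 and 37.9 CPM in these libraries. Of the 2 genes with 100 or more counts, 0 differed by 2-fold in either direction between the kidney libraries, where 5.69% of 12897 genes were higher and 4.03% lower. There was no replicate and no test.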

How the data were processed

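Each library has 1 table. The authors deposited raw read counts per gene, not normalised, and RPKM, which equals the deposited counts divided by gene length and library total to within 0.0005%. Reads were aligned with HISAT2 2.1.0 to mm10, per the submitters' processing notes. Not given in the sources used here are the counting program, its annotation, its strand setting and what it did with multi-mapped reads. Of the members, 0 had counts equal to those of another gene in every library.

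Groups follow the labels. CPM and log2 CPM (prior count 2) used TMM in edgeR 4.0.16, R 4.3.3. The 7 muscle libraries and the 15482 genes kept by filterByExpr (minimum count 10) went into edgeR's quasi-likelihood test, and Benjamini-Hochberg adjusted p under 0.05 was a call. The spread comes from the wild type pair (1 residual degree of freedom) and is assumed to hold for groups of 1 library. That pair spans sets B and C, so its spread takes in any difference between the sets, also where both libraries compared share a set. No term for set was fitted. The spread was drawn toward a value shared over all genes, which weighed as 15.2 prior degrees of freedom. The edgeR SE and p-values of a member thus rest mostly on other genes and only in small part on its own wild type pair. That SE is the absolute log2 change over the square root of the F statistic of the test. It restates the p-value and is no separate estimate. The size rule was 2-fold with 100 or more counts in the higher library, against each wild type library where those were the reference. Ratios have exact conditional binomial 95% intervals, which cover counting error only, and a count of 0 allows up to 3 counts. DESeq2 1.42.0, RLE and total-count scaling, the deposited RPKM, no filter, other prior and minimum counts and each wild type library left out were tried. Scripts were tested on simulated data.

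The members, gene lists and tests were chosen with earlier results of these data known. All members are named, and from the lists of other slow, regulator and stretch genes the 4 with the widest range. Tnni1 and Csrp3 in kidney and the marker genes were picked as examples. Promoters are RefSeq, GRCm38.p6, and gene positions GENCODE, GRCm38.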

Additional observations from a re-analysis of the deposited data

How the results depend on the processing

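The sign of the comparisons with wild type PBS depended on the library left out. Without wild type PBS library 1, 22 of 40 log2 changes of members changed sign, and without library 2 4 did. Under RLE scaling or a prior count of 0.5, 0 of 90 did, and under total counts 2 did (Casq2 and Ankrd2, labelled knockout DKK1 against wild type DKK1). Leaving out either wild type library, members past 2-fold ranged from 0 to 9 higher and 0 to 8 lower for tumour PBS, 5 to 10 higher for MDC, 1 to 10 higher for DKK1 and 0 to 7 higher and 0 to 10 lower for the library labelled knockout PBS. With a minimum of 10 counts, 1 member (Tnni1) was lower in tumour kidney. The r with Tnni1 ranged from 0.712 to 0.892 for Casq2, 0.711 to 0.919 for Csrp3 and 0.764 to 0.927 for Ankrd2, the lower value without library 1.

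DESeq2 called 12 genes for tumour PBS, 11 for MDC, 4 for DKK1 and 19 for labelled knockout PBS against wild type PBS, 6 for labelled knockout DKK1 against wild type DKK1 and 3 for the interaction, where edgeR called 0, and with total counts edgeR called 5 for tumour PBS and 1 for labelled knockout PBS. None of these were members. Total counts moved the median of all genes by up to 0.70 on the log2 scale, and for DKK1 gave 704 genes higher and 10 lower in place of 268 and 28. No paired analysis was possible because only wild type PBS has replicate numbers and the labels link no libraries.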
